A study of Homo sapiens with 9 samples.

Results

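The collagen genes are the protein-coding genes whose symbol has the form COL, a type number, A and a chain number. There were 44 of them among the 58336 rows of the table, each found by mapping its Ensembl identifier to a GENCODE symbol. Nascent transcription had been measured in MEL624, a human melanoma cell line, by precision run-on sequencing (PRO-seq), in which engaged RNA polymerases add a labelled nucleotide to the RNA they are making. The 9 libraries formed 3 groups of 3 biological replicates. The first was PCIF1 KO clone 1, the second PCIF1 KO clone 2, and the third control cells described as wild type with a random sgRNA. Each knockout group was a single clone of the same line. PCIF1 is the enzyme that adds a methyl group to adenosine next to the cap of mRNA. The design text gives 1000000 cells and 40000 Drosophila S2 cells as spike-in per library.

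The deposited values are means, 1 for each group, without a standard deviation. No difference below could therefore be tested against the spread between replicates. A level per kb is the deposited mean normalized count per kb of gene length, used to set genes side by side. A level per gene is that value times the length, a mean normalized count. Ratios between groups are log2 ratios of mean normalized counts after adding 1. The clones share 1 control mean. In bulk libraries of this kind, more cells that transcribe a gene and more transcription per cell cannot be told apart. PCIF1 itself had 269.6 counts in clone 1, 239 in clone 2 and 239 in control, which says nothing of the knockout, since polymerases can still transcribe an edited gene. Of 9 melanocyte and melanoma markers, 3 had a mean count of at least 10. MITF, the regulator of the melanocyte lineage, had 142, 259 and 169 counts in clone 1, clone 2 and control, whereas TYR, the tyrosinase gene, was listed at 0 in all 3 groups and SOX10, a transcription factor gene of the lineage, at 0 in clone 1 and control and at 6.08 counts in clone 2. PMEL, which encodes the fibril protein of pigment granules, had 21.3, 23.8 and 48.4 counts and log2 ratios to control of -1.15 and -1.0. PAX3, another transcription factor gene of the lineage, had 287, 221 and 152 counts. The other pigment genes of the list averaged under 10, with DCT and MLANA at or under 2.04 counts and TYRP1 at or under 6.81.

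Collagens are extracellular matrix proteins in which 3 chains wind into a triple helix. Fibrillar types build the fibres of skin, bone and cartilage, type IV forms the sheet-like network of basement membranes, type VI forms beaded filaments, and the FACIT types (fibril-associated collagens with interrupted triple helices) sit on the surface of fibres. Transmembrane types are anchored in the plasma membrane. Many types need chains from several genes, so the genes of a type are described side by side. In melanoma, collagens come both from fibroblasts of the tumour stroma and from the tumour cells, and a cell line shows the tumour cells alone.

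The type IV genes COL4A1 and COL4A2 are transcribed away from each other from a shared promoter, and the stretch between their annotated starts is shown because both genes had about the same ratio in each clone. The other sequences are the 150 bases before the annotated start of COL9A2, COL11A1, COL16A1 and COL6A3, the genes that were at least 2-fold off control in a clone. They are RefSeq sequences of build GRCh38.p14, written 5′ to 3′ on the strand of the gene, and for the type IV pair on the strand of COL4A2. Capitals mark matches on either strand to the GC box, written GGGCGG, to the CCAAT box, or to TATAAA as the core of the TATA box. The capital run of COL9A2 holds a pair of overlapping GC boxes.
COL4A1-COL4A2, chr13:110307158-110307283: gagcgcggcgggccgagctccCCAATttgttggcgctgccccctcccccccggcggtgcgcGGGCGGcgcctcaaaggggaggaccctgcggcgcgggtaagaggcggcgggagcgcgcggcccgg
COL9A2, chr1:40317287-40317436, minus strand: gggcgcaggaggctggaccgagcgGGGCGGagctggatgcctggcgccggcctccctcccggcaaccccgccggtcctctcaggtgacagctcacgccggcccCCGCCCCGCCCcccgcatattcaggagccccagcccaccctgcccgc
COL11A1, chr1:103108523-103108672, minus strand: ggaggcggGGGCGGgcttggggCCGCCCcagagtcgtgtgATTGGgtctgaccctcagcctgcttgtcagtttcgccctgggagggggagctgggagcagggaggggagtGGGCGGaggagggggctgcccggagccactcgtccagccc
COL16A1, chr1:31704018-31704167, minus strand: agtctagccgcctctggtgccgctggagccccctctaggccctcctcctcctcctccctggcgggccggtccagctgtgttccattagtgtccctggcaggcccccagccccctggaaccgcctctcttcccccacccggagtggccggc
COL6A3, chr2:237414165-237414314, minus strand: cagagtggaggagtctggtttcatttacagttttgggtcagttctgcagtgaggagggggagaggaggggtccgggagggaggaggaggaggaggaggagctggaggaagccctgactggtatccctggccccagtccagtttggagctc

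The stretch between COL4A1 and COL4A2 has 126 bases, 80.2% of them G or C, with 20 CpG dinucleotides, 1 GC box and 1 CCAAT. COL9A2 and COL11A1 have 3 GC boxes each, and COL16A1 and COL6A3 have none of the 3 motifs. These genes were picked by their ratios, and a link between motifs and the direction of a ratio was not tested. COL6A3 has 1 CpG, against 15 in COL9A2, 8 in COL11A1 and 7 in COL16A1. Over windows of this length before 35116 annotated starts, 36.8% hold a GC box, 23.5% a CCAAT and 6.71% a TATAAA. Of the 12 collagen genes with a promoter entry and a mean count of at least 10, 6 hold a GC box, 4 a CCAAT and 1 a TATAAA. Such a match describes the letters and not the binding of a factor. The annotated first base was A, the base that PCIF1 methylates next to the cap, in 7 of those 12 genes and in 44.4% of all entries. The median log2 ratio to control of the 7 genes with A first was -0.27 for clone 1 and -0.15 for clone 2. That of the other 5 genes was -0.08 and -0.21. A link between the first base and a ratio was not tested, and medians by first base over all compared genes were not taken.

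Of the 44 collagen genes, 17 had a mean of at least 10 normalized counts over the 3 groups and were compared. A further 3 (COL5A1, COL11A2 and COL20A1) reached 10 counts in at least 1 group but not on average, and 24 stayed under 10 in every group. Around the limit of 10, COL5A1 averaged 9.66 and COL20A1 8.82 counts just outside, and COL11A1 averaged 11.9 and COL1A1 21.4 just inside. COL11A1 passed only through the clones, since it had 6.91 counts in control. COL24A1 and COL26A1 were listed at 0 in all 3 groups, and 9 others were above 0 somewhere but under 1 count everywhere. COL14A1 and COL22A1, both FACIT genes, were among these. The 44 genes together held 2104 normalized counts in clone 1, 2129 in clone 2 and 2283 in control, which is 0.0560%, 0.0557% and 0.0607% of all counts.

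**Figure D1:**
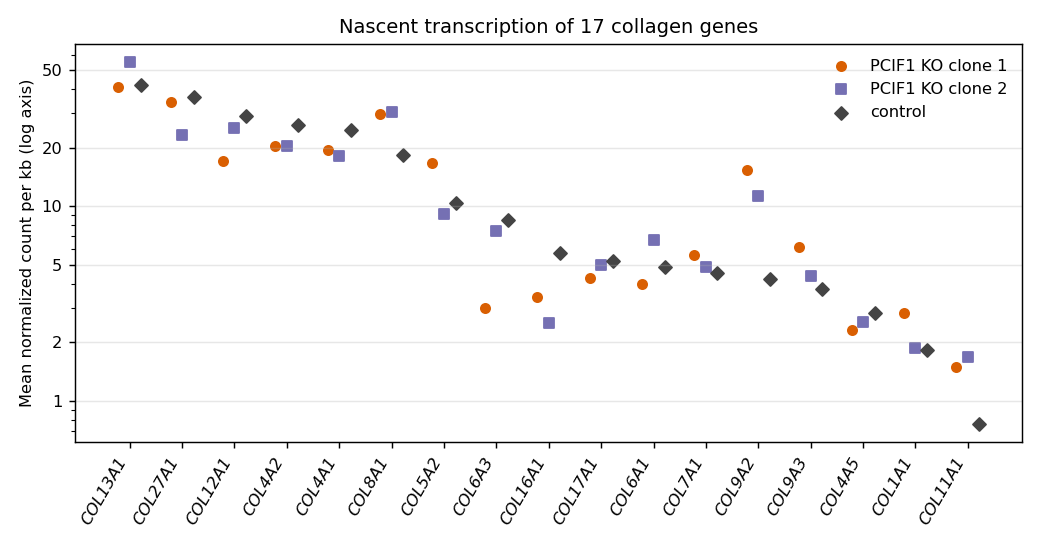
Mean normalized count per kb (log axis) of the 17 compared collagen genes in PCIF1 KO clone 1 (circles), PCIF1 KO clone 2 (squares) and control (diamonds), ordered by the control level. Each point is a deposited mean per group with no error bar available; COL13A1 stands first in all 3 groups, and COL9A2 lies higher in both clones than in control.

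On the scale per kb, COL13A1, a transmembrane collagen of cell contacts, was the highest collagen gene in all 3 groups. It had 40.8 in clone 1, 55.0 in clone 2 and 41.7 in control. In control it was above 77.7% of the protein-coding genes in the table. In control the order after COL13A1 was the fibrillar gene COL27A1 (36.2), the FACIT gene COL12A1 (29.2), COL4A2 (26.2), COL4A1 (24.6), the short-chain gene COL8A1 (18.3) and COL5A2 (10.3). The other 10 compared genes lay between 0.76 and 8.44 per kb in control. The 5 highest genes of control made up 55.8% of the summed collagen signal per kb in clone 1, 59.6% in clone 2 and 66.5% in control. COL8A1 took the third place in clone 1 and the second in clone 2, against the sixth in control. Neighbours in this order cannot be told apart, because no spread between replicates is known. The order also rests on the deposited lengths, and whether reads of introns were counted is unknown. The deposited length of COL13A1 was 5888 bases in a span of 162 kb, so the order may not be that of transcription. The deposited lengths of COL13A1, COL12A1, COL4A2 and COL4A1 were 0.51, 0.66, 0.45 and 0.56 of the merged GENCODE exon length. That of COL27A1, which had more counts than COL13A1 in every group, was 1.00 of it.

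The chains of a type differed in level per kb. For type I, the main collagen of skin and bone, COL1A1 had 2.83, 1.87 and 1.83 per kb in clone 1, clone 2 and control, whereas COL1A2 had 0.03, 0.03 and 0.13. For type V, which controls fibre thickness, COL5A2 had 16.8, 9.16 and 10.3 per kb, against 0.43, 0.94 and 1.22 for COL5A1, and COL5A3 was listed at 0 in clone 2 and control and at 0.08 in clone 1. For type VI, which needs 3 different chains, COL6A3 had 2.98, 7.42 and 8.44 per kb, COL6A1 had 4.0, 6.71 and 4.85, and COL6A2 had 0.42, 0.95 and 1.21. For type IX, a cartilage FACIT, COL9A1 was listed at 0 in clone 2 and control while COL9A2 and COL9A3 were transcribed. COL8A2, the partner of COL8A1, was at or under 0.36 per kb in all 3 groups. In each of these types a chain gene was thus well below its partner in the same group.

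Set against control, the collagen genes as a set were centred near 0, with single genes far off it. The median log2 ratio of the 17 compared genes was -0.08 in clone 1, -0.07 in clone 2 and -0.00 for clone 2 over clone 1, against medians that rounded to 0.00 in size over all 17149 genes compared. In clone 1, 1 collagen gene was at least 2-fold higher than in control and 1 at least 2-fold lower, beside 2.27% and 1.32% of all compared genes. In clone 2, 2 were at least 2-fold higher and 1 lower, beside 3.34% and 1.90% of all compared genes. At a limit of 1.5-fold, 6 of 17 were higher and 3 lower in clone 1 (6.93% and 4.94% of all compared genes), and 3 were higher and 2 lower in clone 2 (9.76% and 7.23%). COL11A1, which passed the limit of 10 counts only through the clones, is among the higher genes of every one of these counts but that of 2-fold in clone 1, so the filter took part in its call. The counts past 2-fold rest on 1 or 2 genes each. The median size of the log2 ratio, whatever its sign, was 0.60 in clone 1 and 0.36 in clone 2 for the collagen genes. It was 0.20 and 0.26 over all compared genes, and 0.18 and 0.23 over compared protein-coding genes. These sets were not matched for mean count.

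Low counts scatter more, so each gene was also placed among compared genes of like mean count (10 to 50, 50 to 200, 200 to 1000 and above). In clone 1 over control, COL8A1 and COL9A2 lay above the 97.5th percentile and COL6A3 and COL12A1 below the 2.5th, where 2.51% of all compared genes lie at each end. COL8A1, with a mean count of 247 and a ratio of 0.70, passed the upper limit of its own range (0.62). It did not pass that of genes of 50 to 200 counts (0.80). In clone 2 over control, 0 collagen genes lay above and COL27A1 lay below (2.51% at each end). These places describe the means and carry no replicate error.

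**Figure D2:**
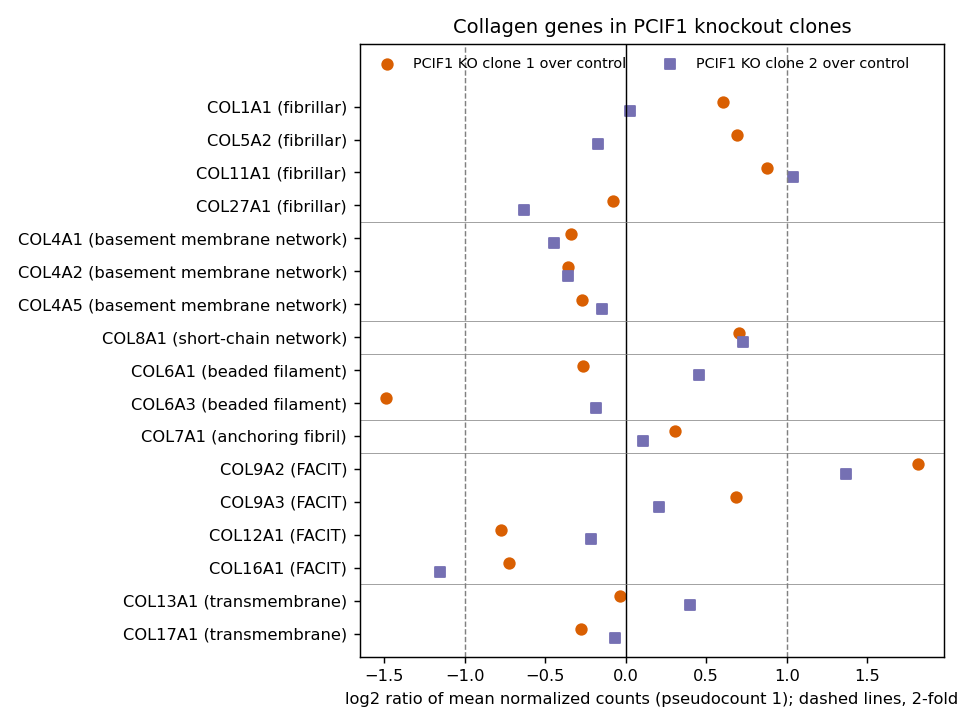
Log2 ratio of mean normalized counts (pseudocount 1) of the 17 compared collagen genes in clone 1 (circles) and clone 2 (squares) over control, grouped by collagen class, with dashed lines at 2-fold. COL9A2 lies past 2-fold in both clones at 1.81 and 1.37, COL6A3 in clone 1 at -1.49, and COL11A1 and COL16A1 in clone 2 at 1.04 and -1.15.

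Among the FACIT genes, COL9A2 was higher and COL16A1 and COL12A1 were lower. COL9A2 (ENSG00000049089; chromosome 1, 40300489 to 40317813, minus strand), which encodes a chain of the cartilage collagen type IX, had 64.8 counts in clone 1 and 47.3 in clone 2, against 17.7 in control. Both clones were above control, 3.52-fold in clone 1 and 2.58-fold in clone 2, log2 ratios of 1.81 and 1.37. It was the only compared collagen gene at least 2-fold off in both. Its partner COL9A3 had 29.7 counts in clone 1 and 21.0 in clone 2, against 18.1 in control, log2 ratios of 0.69 and 0.21. COL9A3 overlaps TCFL5 on the other strand, which had 101, 105 and 123 counts in clone 1, clone 2 and control, and the strand setting of the counting is not given in the sources used here.

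COL16A1 (ENSG00000084636; chromosome 1, 31652263 to 31704319, minus strand), a FACIT of fibrils and basement membranes, had 31.7 counts in clone 1 and 23.3 in clone 2, against 53.0 in control. Both clones were below control, with log2 ratios of -0.72 in clone 1 and -1.15 in clone 2. With the pseudocount of 1 added instead to the values per kb, 2.51 in clone 2 and 5.72 in control, the ratio was -0.94. That is within 2-fold, but the pseudocount weighs more on these smaller values. The noncoding gene PEF1-AS1 overlaps it on the other strand, with 27.5, 26.7 and 32.9 counts, and whether reads of the one were counted for the other was not tested. COL12A1, a FACIT of tendon and of tissues under load, had 212 counts in clone 1 and 315 in clone 2, against 365 in control. Its ratio was -0.78 in clone 1 and -0.21 in clone 2.

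Of the beaded filament genes, COL6A3 showed the widest gap between the clones. COL6A3 (ENSG00000163359; chromosome 2, 237324003 to 237414328, minus strand), the long chain of type VI, had 58.5 counts in clone 1 and 146 in clone 2, against 166 in control. Clone 1 was 2.80-fold below control, a log2 ratio of -1.49, and clone 2 was close to control at -0.18. COL6A1, another chain of the type, was also lowest in clone 1, with 21.4 counts in clone 1 and 35.9 in clone 2, against 25.9 in control. Its ratios were -0.27 and 0.45. COL6A2 was under the limit of 10, with 2.26, 5.12 and 6.52 counts in clone 1, clone 2 and control.

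The fibrillar genes had no common direction. COL11A1, a chain of the cartilage collagen type XI, had 13.5 counts in clone 1 and 15.3 in clone 2, against 6.91 in control, log2 ratios of 0.88 and 1.04. In clone 2 its ratio was under 2-fold with a pseudocount of 5 (0.77) and less its neighbours (0.94). It was 0.61 with the pseudocount of 1 added to the values per kb, 1.68 in clone 2 and 0.76 in control, on which it weighs more. Its partner COL11A2, under the limit on average, had 10.4 and 8.83 counts in the clones and 3.91 in control, and COL2A1, the main cartilage collagen, had 8.73, 7.80 and 6.26. COL11A2 and COL2A1 were under the limit of 10 on average, and COL11A1 passed it only through the clones, so a few reads decide the ratios of these genes. COL5A2 (chromosome 2, 189031898 to 189225312, minus strand) had 119.9 counts in clone 1 and 65.5 in clone 2, against 73.8 in control. Clone 1 was above control at 0.69 and clone 2 slightly below it at -0.17. Its neighbour COL3A1, a collagen of vessels and skin that lies beside it on the same chromosome, had 1.43, 2.11 and 0.75 counts.

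COL1A1 had 27.8 counts in clone 1 and 18.4 in clone 2, against 18.0 in control, ratios of 0.60 and 0.03. COL27A1 (chromosome 9, 114155537 to 114312511, plus strand), a fibrillar collagen of growing cartilage and the collagen gene with most counts in every group, had 479.5 counts in clone 1 and 326 in clone 2, against 506 in control. Clone 2 was below both, with a ratio to control of -0.63, while clone 1 was near control at -0.08.

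All 3 compared genes of the basement membrane network were lower in both clones, by less than 1.5-fold. Of all 17149 compared genes, 8702 were below control in clone 1 and 8645 in clone 2. The 3 genes are not separate cases, since COL4A1 and COL4A2 share a promoter and both clones share 1 control mean. COL4A1 (chromosome 13, 110148963 to 110307157, minus strand) had 159 counts in clone 1 and 148 in clone 2, against 202 in control. COL4A2 (chromosome 13, 110305812 to 110513209, plus strand), its partner in the most widespread type IV trimer, had 178 counts in clone 1 and 178 in clone 2, against 228 in control. The log2 ratios were -0.34 and -0.45 for COL4A1 and -0.36 and -0.36 for COL4A2, so the pair read from the shared promoter shown above kept about the same balance in each group. The annotated spans of COL4A1 and COL4A2 overlap on opposite strands. Whether reads of the one were counted for the other was not tested. COL4A5, a chain of the kidney basement membrane, had 27.5 and 30.1 counts in clone 1 and clone 2 and 33.5 in control. COL4A3, COL4A4 and COL4A6 lay between 2.72 and 6.66 counts. The annotated starts of COL4A3 and COL4A4 are 418 bases apart, yet both were barely transcribed in all groups, and COL4A5 was transcribed more than COL4A6 although their nearest starts are 379 bases apart.

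COL8A1 (chromosome 3, 99638475 to 99799226, plus strand), which encodes a short-chain collagen made by vessel wall and other cells, had 282 counts in clone 1 and 286 in clone 2, against 172 in control. Both clones were above control by nearly the same amount, 1.63-fold and 1.66-fold, log2 ratios of 0.70 and 0.73. COL7A1, the collagen of anchoring fibrils below the epidermis, had 62.0, 54.0 and 50.0 counts in clone 1, clone 2 and control. Of the transmembrane genes, COL13A1 had 240.3 counts in clone 1 and 324 in clone 2, against 246 in control, ratios of -0.03 and 0.40. COL17A1, a component of hemidesmosomes, had 27.5, 31.9 and 33.5 counts. The multiplexin genes COL15A1 and COL18A1, whose proteins associate with basement membranes, stayed at or under 5.85 counts in every group.

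**Figure D3:**
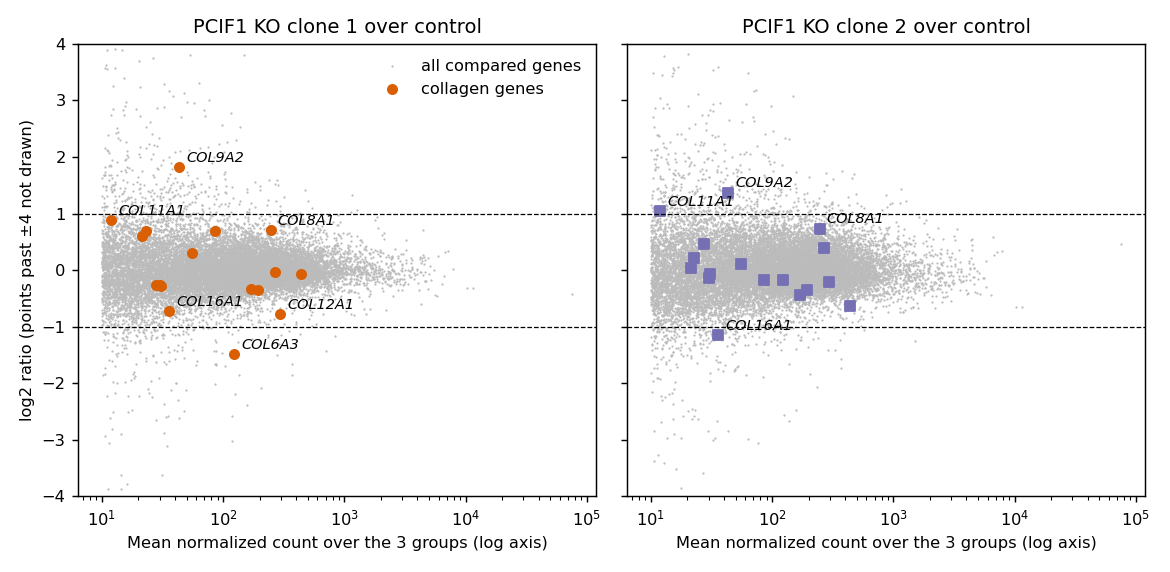
Log2 ratio over control against the mean normalized count over the 3 groups (log axis) for all 17149 compared genes (grey) and the 17 collagen genes (coloured), with clone 1 left, clone 2 right and dashed lines at 2-fold; points past 4 in size are not drawn. COL6A3, COL12A1, COL8A1 and COL9A2 lie at the edge of the grey cloud in clone 1.

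The clones were also compared without control. In clone 2, 1 collagen gene, COL6A3 (2.46-fold, log2 ratio 1.30), was at least 2-fold higher than in clone 1, and 0 were at least 2-fold lower, beside 1.05% and 0.933% of all compared genes. At 1.5-fold, 2 were higher and 1 lower (4.37% and 3.80%). COL6A3 and COL12A1 (0.56) lay above the 97.5th percentile of genes of like count, and COL5A2 (-0.86) and COL27A1 (-0.55) below the 2.5th, beside 2.51% of all compared genes at each end. Of the 17 genes, 6 were above control in both clones, 8 below it in both and 3 (COL5A2, COL6A1 and COL13A1) on opposite sides of it. Both ratios hold the same control mean, so a like sign is not read as agreement. The share of like signs over all compared genes was not taken.

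The genes next to each collagen gene on its chromosome were read beside it, and the part of copy number in any ratio was not tested. For each collagen gene the median log2 ratio of the 10 nearest compared genes on each side was taken, other collagen genes left out. That median was at least 0.25 in size in a clone for 4 of the 17 genes. The same share around other compared genes was not taken, so the count is not read as a trait of collagen genes. The neighbours of COL6A3 were at 0.51 in clone 1 and 0.21 in clone 2, so the ratio of COL6A3 less that of its neighbours was -2.0 in clone 1. The neighbours of COL13A1 were at -0.04 and 0.59, those of COL17A1 at 0.04 and 0.43, and those of COL7A1 at -0.07 and 0.46 in clone 1 and clone 2. Less its neighbours, COL13A1 was at 0.01 in clone 1 and -0.19 in clone 2, so its ratio in clone 2 was no higher than that of the genes around it. For COL9A2 the neighbours were at 0.01 and 0.07, for COL16A1 at 0.03 and -0.07, for COL8A1 at 0.10 and -0.12, and for COL4A1 at -0.02 and 0.02.

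**Figure D4:**
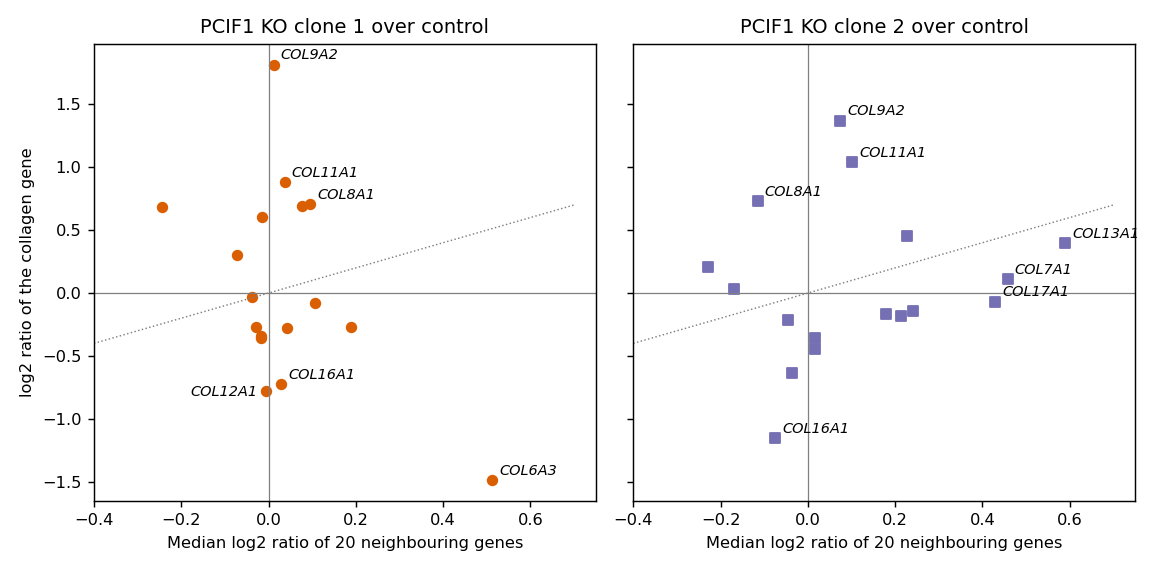
Log2 ratio of each of the 17 compared collagen genes (vertical) against the median log2 ratio of its 20 neighbouring genes (horizontal), for clone 1 (left) and clone 2 (right) over control; the dotted line marks equal values. COL6A3 lies at -1.49 in clone 1 beside neighbours at 0.51, and COL13A1 in clone 2 at 0.40 beside neighbours at 0.59.

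Fibroblasts are the main source of collagen in tissue, and their marker genes were read beside these values. Of 7 such markers 5 were compared, and the summed level of the list was 163 per kb in clone 1, 139.9 in clone 2 and 72.9 in control. TWIST2, a transcription factor gene of mesenchymal cells, had 249.8 and 214 counts in clone 1 and clone 2 and 84.0 in control. Per kb it had 133, 114 and 44.8 in clone 1, clone 2 and control, differences from control about as large as those of the summed level. PDGFRA had log2 ratios to control of 0.65 in clone 1 and 0.50 in clone 2. FAP, whose control count was close to the pseudocount, had 3.57 and 2.18. PDGFRB and THY1, receptor and surface protein genes of the same list, did not share that direction. Their ratios were -0.55 and 0.00 in clone 1 and -0.15 and -0.82 in clone 2. Of the 5 compared markers, 4 were above control in clone 1 and 3 in clone 2. The small leucine-rich proteoglycan genes DCN and LUM were at or under 2.06 and 7.91 counts in every group, and COL1A2 and COL3A1 at or under 2.11. The part of these markers in the collagen ratios was not tested. The 4 endothelial markers summed to 1.67, 2.04 and 1.49 per kb in clone 1, clone 2 and control, and the 3 blood markers to 0.12, 0.16 and 0.17. The 4 epithelial markers summed to 279.7, 262 and 323 per kb, the highest sums of the marker lists. Nearly all of this came from the keratin genes KRT8, with 53.9, 54.3 and 55.9 per kb, and KRT18, with 222, 206 and 262, both within 1.5-fold of control in each clone. CDH1, the E-cadherin gene, was at or under 2.84 counts and EPCAM at or under 12.6.

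The genes that make, bind and break down collagen are described from 6 lists holding 70 genes, of which 60 were compared. At the 2-fold limit, 2 of them were higher and 3 lower in clone 1 (2.27% and 1.32% of all compared genes), and 2 were higher and 2 lower in clone 2 (3.34% and 1.90%). The higher genes of both clones include FAP, which passed the limit of 10 counts only through clone 1, and the lower ones include ITGA11, which passed it only through control, so the filter took part in these calls. Their median log2 ratio to control was -0.04 for clone 1 and -0.12 for clone 2.

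The 17 enzymes and chaperones that modify chains in the endoplasmic reticulum summed to 1004, 1038 and 1035 per kb in clone 1, clone 2 and control. The 44 collagen genes summed to 237, 238 and 238. All 16 compared enzymes and chaperones lay within 2-fold of control in both clones, as did most of all compared genes. Only 2.27% and 1.32% of these were at least 2-fold higher and lower in clone 1, and 3.34% and 1.90% in clone 2. The cyclophilin gene PPIB was highest at 238, 233 and 239 per kb in clone 1, clone 2 and control, and P4HB, a subunit of prolyl 4-hydroxylase, had 172, 150.3 and 177. SERPINH1, which encodes the collagen chaperone HSP47, had 48.8, 46.5 and 47.7 per kb. The catalytic subunit gene P4HA1 had 247 counts in clone 1 and 334 in clone 2, against 192 in control, a ratio of 0.79 in clone 2. None of the 6 genes of the secretion list, such as MIA3, whose product loads procollagen into carriers, was 2-fold off either. The highest of that list per kb were PREB, with 46.4, 54.4 and 56.0, and MIA3, with 33.9, 32.7 and 33.9.

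Outside the cell, single genes stood apart. TLL1, a protease that cleaves procollagen ends, had 15.8 counts in clone 1 and 13.2 in clone 2, against 102 in control, log2 ratios of -2.62 and -2.85. PCOLCE, the enhancer of that class of proteases, had 126 counts in clone 1 and 147 in clone 2, against 70.9 in control, ratios of 0.82 and 1.04. BMP1, the main protease of the family, had 82.3, 83.2 and 86.6 counts, close to control in both clones. The crosslinking genes LOXL2 and LOXL3, the highest of this list per kb in control, had 47.5 and 47.9 per kb in clone 1, 38.2 and 44.7 in clone 2 and 49.0 and 47.6 in control.

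Among receptors, the integrin gene ITGA11, whose product binds fibrillar collagen, had 5.11 counts in clone 1 and 7.50 in clone 2, against 19.2 in control, ratios of -1.73 and -1.25. GP6, the collagen receptor gene of platelets, had 34.5 counts in clone 1 and 20.5 in clone 2, against 14.4 in control, ratios of 1.2 and 0.48. ITGB1, the common beta chain, and MRC2, an uptake receptor, were highest of the list per kb on average over the groups, at 56.3 and 27.1 in clone 1, 47.9 and 24.9 in clone 2 and 54.7 and 27.2 in control.

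Among genes of breakdown, FAP, a cell-surface protease of activated fibroblasts that is also in the fibroblast list, had 27.6 counts in clone 1 and 9.87 in clone 2, against 1.40 in control. Its ratios of 3.57 and 2.18 rest on a control value close to the pseudocount, and the gene met the limit of 10 only where it was high. The inhibitor genes TIMP2 and TIMP3 were highest of the list, at 569 and 116 per kb in clone 1, 575 and 117 in clone 2 and 469 and 115 in control. The membrane collagenase gene MMP14 had 217, 190.1 and 269 counts. Of the regulators, TGFB1, a growth factor that raises collagen transcription in many cells, had 31.8 counts in clone 1 and 70.4 in clone 2, against 67.3 in control, a ratio of -1.06 in clone 1 and 0.06 in clone 2. CCN2, a target of that pathway, and SMAD3, its signal transducer, were highest of the list per kb, at 887 and 153 in clone 1, 763 and 153 in clone 2 and 932 and 161 in control.

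**Figure D5:**
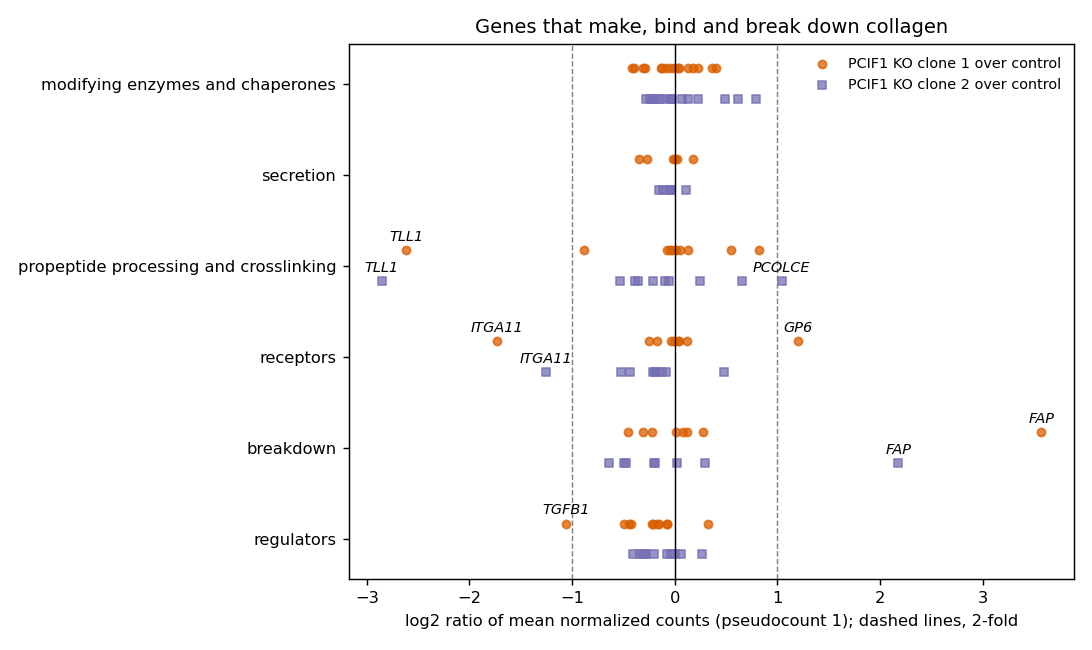
Log2 ratio over control (pseudocount 1) of the 60 compared genes of 6 lists that make, bind, break down or regulate collagen, in clone 1 (circles, upper row of each list) and clone 2 (squares, lower row), with dashed lines at 2-fold and names at genes past them. TLL1 lies at -2.62 and -2.85. The modifying enzymes all lie within 2-fold, as do most of all compared genes.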

How the data were processed

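Per the file header, the authors deposited 1 mean per group of normalized counts per kb of gene length, a signal that had been scaled and averaged over replicates; the gene length in bases is the other deposited value. Per the submitters' processing notes, cutadapt 1.14, Bowtie 1.2.2, featureCounts and DESeq2 were used with builds hg38, dm3 and GRCh38.p12, in roles not given in the sources used here; nor are the counted feature, the strand setting or the use of the spike-in. The depth of single libraries is unknown, so no interval is given. The header has 6 names and the rows 5 cells, the symbol being absent. Identifiers were matched to GENCODE release 44 (57754 with a symbol, 582 without), whose merged exon length equals the deposited length for 64.4% of them; reads of introns may not enter the values. The deposited length was within 5% of that of GENCODE for 29 of the 44 collagen genes, and counts use the deposited one.

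Values were multiplied by length, values of at least 10 counts on average over the 3 groups were compared, and log2 ratios were taken with a pseudocount of 1. Only the size of a ratio is described, and no test was possible. Every collagen gene is accounted for; those of at least 10 counts are named, as are list genes 2-fold off and the 2 highest of each list per kb; other named genes were chosen after their values were seen. The members and lists were chosen with earlier results of these data known. Promoter sequences are from RefSeq (32 of 44 genes matched). The ratio step was tested on simulated data. Python 3.11.15, numpy 2.4.6, pandas 2.3.3 and matplotlib 3.10.9 were used.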

Additional observations from a re-analysis of the deposited data

How the results depend on the processing

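No paired analysis was possible because the table gives 1 mean per group, and for the same reason no replicate could be left out. Alternatives were pseudocounts of 0.5 and 5, median-of-ratios rescaling, the deposited value per kb, subtraction of the neighbours' median, no filter and a floor of 50 counts (9 collagen genes). On the scale per kb the pseudocount of 1 was added to the smaller values per kb, which shrank the ratios of low values. Of 255 values for single genes, 251 kept their side of 2-fold. Most lay within 2-fold to begin with, and the rescaling factors all rounded to 1.00, so few values could change. A change of sign within 2-fold counted as the same. Less the neighbours, for example, clone 2 over control went from 0.40 to -0.19 for COL13A1 and from 0.11 to -0.35 for COL7A1. COL11A1 in clone 2 over control was 0.77 with a pseudocount of 5, 0.61 per kb and 0.94 less its neighbours, and COL16A1 in clone 2 was -0.94 per kb. The number at least 2-fold higher in clone 2 than in control was therefore 1 under each of the first 3 and the number lower was 0 per kb. With no filter, 3 were higher and 3 lower in clone 1 and 4 higher and 2 lower in clone 2 than in control, and 2 were lower in clone 2 than in clone 1. With the floor of 50, 0 of 9 were higher in clone 1 and 0 of 9 were higher or lower in clone 2 than in control. The shares of all genes under these 2 filters were not taken. The median log2 ratio was -0.19 in clone 1, -0.35 in clone 2 and -0.15 for clone 2 over clone 1 less the neighbours, 0.065 in clone 1 with no filter and -0.18 in clone 2 with the floor of 50. The filters differ in which genes enter, and the scale per kb differs only in the weight of the pseudocount. For the others the cause was not tested. A single mean per group limits every value here.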
